A study of Homo sapiens with 18 samples.

Results

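Polycomb repressive complex 2 (PRC2) is the enzyme complex that places methyl groups on lysine 27 of histone H3, a mark of silenced genes. The 10 genes described here are its 6 core subunits, EZH1, EZH2, SUZ12, EED, RBBP4 and RBBP7, and its 4 accessory subunits JARID2, MTF2, PHF19 and AEBP2. They were taken by symbol from the authors' 3 tables, and all 10 were listed in each, among 25673 names in the RKO table, 19881 in that of COLO 201 and 19977 in that of H1975. All 10 also passed the minimum of a mean of 1 TPM (a level scaled to transcript length and to the sum of its column) in every line. As background, EZH1 or EZH2 supplies the catalytic SET domain, SUZ12 and EED hold the enzyme together, and EED also binds the finished mark. RBBP4 and RBBP7 are histone chaperones that PRC2 shares with the NuRD, SIN3 and CAF-1 complexes. The accessory subunits divide PRC2 into a form with a Polycomb-like protein (PHF1, MTF2 or PHF19) and a form with JARID2 and AEBP2. In many tumours EZH2 and its partners are transcribed with the cell cycle, under E2F factors, while EZH1 is the form typical of resting cells.

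Messenger RNA was sequenced from RKO and COLO 201, both colon cancer lines, and from H1975, a lung cancer line. Every line carried a short hairpin RNA against MUC1, a transmembrane mucin, under a doxycycline-inducible promoter. In each line 3 columns were headed as doxycycline plus (500 ng/ml) and 3 were the vehicle, 0.1% DMSO, all in medium with 10% serum. The RKO vehicle columns are headed DOX without a sign, and the reading as vehicle rests on the protocol, which has no other arm. Vehicle cells carry the hairpin too, and no control hairpin given doxycycline was analysed here, so effects of losing MUC1 and of doxycycline itself cannot be told apart. The cultures were in triplicate and nothing ties column numbers to sample titles, so p-values measure the spread between these cultures. TPM keep no read totals, so depth is unknown, and the 3 tables follow different gene lists, so levels were tested only within a table. In bulk samples like these, fewer cells in a state and less RNA per cell cannot be told apart.

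MUC1 was the check of the headings. In RKO it was 0.108, 0.105 and 0.204 TPM with doxycycline, against 15.2, 1.24 and 1.03 TPM with vehicle. In COLO 201 the values were 2.03, 1.78 and 1.53 TPM with doxycycline and 13.2, 15.0 and 13.6 TPM with vehicle. H1975 had 7.05, 9.56 and 7.44 TPM with doxycycline and 101, 86.2 and 105 TPM with vehicle. Doxycycline lay below vehicle in every column of all 3 lines (limma adjusted p = 0.0027 in RKO, 3.5e-10 in COLO 201 and 4.1e-11 in H1975). An exact two-sided permutation test gave 0.1 in each line, the smallest p that 3 against 3 allows. In RKO, MUC1 reached the minimum mean of 1 TPM only through its 15.2 TPM in vehicle column 1. Without that column limma did not test it.

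Vehicle column 1 of RKO stood apart from the other 5. Its summed TPM of 13 fibroblast and endothelial markers was 711, against 2.50 to 3.80 in the doxycycline columns and 8.17 and 7.12 in the other vehicle columns, with CDH5 listed at 0 in all. That sum includes VIM at 361 TPM. The summed level of 5 epithelial markers was 48.2 to 68.7 TPM with doxycycline and 28.7, 52.4 and 48.3 TPM with vehicle in RKO, 7468 to 7838 and 7661 to 7750 TPM in COLO 201, and 2497 to 2753 and 2362 to 2592 TPM in H1975. Of these markers CDH1 and KRT19 were at most 0.0294 TPM in RKO. The colon markers VIL1, KRT20 and GPA33 were listed at 0 in RKO. There CDX1 and CDH17 were at most 0.0238 TPM, while CDX2 was present at 1.18 to 2.96 TPM. The lung markers SFTPC and SCGB1A1 were listed at 0 in H1975, where NKX2-1 was present. Leukocyte and erythroid markers summed to 392 to 489 TPM with doxycycline and 121, 262 and 218 TPM with vehicle in RKO. That sum is almost wholly CD68, at 392, 489 and 452 TPM with doxycycline and 121, 262 and 218 TPM with vehicle, and every other marker of the list was at most 0.136 TPM. In COLO 201 the same list summed to 693 to 742 TPM with doxycycline and 1283 to 1291 TPM with vehicle, most of it LYZ, and in H1975 to 279 to 331 and 160 to 170 TPM, most of it CD68. The fibroblast and endothelial sum was 12.5 to 14.0 TPM with doxycycline and 32.5 to 35.5 TPM with vehicle in COLO 201, and 779 to 878 and 953 to 1071 TPM in H1975. Most of it was CAV1 in COLO 201. In H1975 it was mostly VIM, at 496 to 675 TPM, and CAV1, at 263 to 364 TPM, with DCN and THY1 listed at 0. The lung markers NKX2-1 and NAPSA were both called lower in H1975, where the lung list summed to 16.2 to 19.1 TPM with doxycycline and 26.9 to 30.8 TPM with vehicle. The part of these markers in the subunits' values was not tested. In RKO 71.1% to 78.7% of TPM with doxycycline and 67.8% to 72.0% with vehicle belonged to small noncoding RNA genes. Mitochondrially encoded genes held 16.9% to 23.0% of TPM in the COLO 201 columns and 16.1% to 22.5% in those of H1975. Since such shares push all other TPM up or down, each fit was repeated with each column divided by the median, over genes, of its ratio to the geometric mean of the columns (rescaled), which moved the median log2 change of all tested genes to 0.00 from -0.26 in RKO, to -0.01 from 0.12 in COLO 201 and to 0.02 from 0.06 in H1975. As deposited, 220 genes were higher and 1695 lower in RKO, 5312 and 1740 in COLO 201 and 2959 and 1800 in H1975. Rescaled, the split was 1453 and 1468 in RKO, 3153 and 3435 in COLO 201 and 2627 and 2288 in H1975. MUC1 of RKO, whose highest vehicle value is in column 1, then missed the threshold at -1.77 ± 0.79 on the log2 scale (limma adjusted p = 0.14).

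In RKO cells given doxycycline, most subunits lay below their vehicle level. PHF19 stood at 0.461 of its vehicle mean, EED at 0.526 and RBBP4 at 0.527, and these 3 of the 10 subunits were called lower at a limma adjusted p under 0.05, against 16.1% of all 10551 tested genes called lower. By the same test 0 were called higher, against 2.09% of all genes. At an unadjusted p under 0.05 the numbers were 8 lower and 0 higher. The largest limma p of these 8 was 0.021, of RBBP7, which ranked 2572 among the 10551 tested genes. The share of all genes at an unadjusted p under 0.05 was not computed, here or for the like counts below. With columns rescaled, 6 were called lower (EZH2, EED, RBBP4, RBBP7, MTF2 and PHF19), against 14.0% of all genes, and 1, EZH1, was called higher, against 13.8%. In 8 of the 10 every doxycycline column lay below every vehicle column, as it did for 32.4% of all tested genes. For 0 of the 10 it lay above, as for 3.90% of all genes.

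The 2 catalytic subunits of RKO took different courses. EZH2 (GRCh38 chr7:148807383-148884321, minus strand) was 13.0, 20.7 and 15.4 TPM with doxycycline and 22.0, 26.8 and 23.3 TPM with vehicle. The highest doxycycline column stayed under the lowest vehicle column. The log2 change, on the log2(TPM + 1) scale used throughout, was -0.55 ± 0.21 (SE), which did not pass the test as deposited (limma adjusted p = 0.074) and did with rescaled columns, where it was -0.26 ± 0.07 (limma adjusted p = 0.044). EZH1 (chr17:42700275-42745049, minus strand), the less active enzyme, was 3.59, 5.05 and 4.29 TPM with doxycycline and 3.03, 4.58 and 3.29 TPM with vehicle. The arms overlapped. Its log2 change was 0.20 ± 0.19 (limma adjusted p = 0.46), and with rescaled columns 0.44 ± 0.09 (limma adjusted p = 0.016).

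A ratio of genes within a column does not depend on the column's scaling, and the enzyme ratio separated the arms in RKO. EZH1 made up 21.7%, 19.6% and 21.7% of the summed EZH1 and EZH2 TPM with doxycycline, against 12.1%, 14.6% and 12.4% with vehicle. Every doxycycline column was above every vehicle column, with means of 21.0% ± 1.22 and 13.0% ± 1.36 (SD, n = 3 each). How often ratios or sums of other genes separate the arms was not counted, here or for the shares, ratios and sums below.

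The scaffold subunits of RKO lay lower by unequal amounts. EED (chr11:86244544-86278813, plus strand), the reader of the mark, was 4.38, 6.34 and 4.77 TPM with doxycycline and 8.63, 11.3 and 9.53 TPM with vehicle. Its log2 change of -0.82 ± 0.19 passed the test (limma adjusted p = 0.0030), and it was -0.56 ± 0.07 rescaled (limma adjusted p = 0.0043). The call held without any single column, but only just without doxycycline column 1 (limma adjusted p = 0.050 after rounding). With no minimum TPM it was lost (limma adjusted p = 0.071). SUZ12 (chr17:31937018-32001045, plus strand), which binds all the other core subunits, was 13.0, 19.3 and 14.8 TPM with doxycycline and 19.7, 27.7 and 23.4 TPM with vehicle. Its arms did not overlap, by a narrow margin. The change of -0.56 ± 0.21 did not pass (limma adjusted p = 0.066, and 0.076 rescaled). The ratio of EED to SUZ12 TPM was 0.338, 0.329 and 0.322 with doxycycline and 0.438, 0.408 and 0.408 with vehicle, so EED lay lower against SUZ12 in every doxycycline column. In COLO 201 and H1975 that ratio overlapped between the arms, at 0.354 to 0.393 with doxycycline and 0.373 to 0.398 with vehicle in COLO 201 and at 0.210 to 0.245 and 0.237 to 0.264 in H1975.

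Of the histone chaperones of RKO, one was called and one was not. RBBP4 (chr1:32651142-32686211, plus strand) was 14.1, 20.5 and 17.1 TPM with doxycycline and 35.98, 34.4 and 27.6 TPM with vehicle. Its log2 change was -0.89 ± 0.22 (limma adjusted p = 0.0045), and the call was lost without doxycycline column 1 (limma adjusted p = 0.057). RBBP7 (chrX:16839283-16870414, minus strand), its close paralogue, was 21.4, 31.9 and 23.6 TPM with doxycycline and 36.3, 40.4 and 35.0 TPM with vehicle. The arms did not overlap, and the change of -0.54 ± 0.22 did not pass as deposited (limma adjusted p = 0.085) and passed rescaled at -0.25 ± 0.07 (limma adjusted p = 0.039). RBBP7 made up 60.4%, 61.0% and 58.1% of the pair's TPM with doxycycline and 50.2%, 54.0% and 55.9% with vehicle.

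Among the accessory subunits of RKO, PHF19 (chr9:120855652-120894896, minus strand), a Polycomb-like protein that binds histone H3 methylated at lysine 36, changed the most of all 10. It was 5.76, 7.87 and 7.25 TPM with doxycycline and 16.8, 15.0 and 13.4 TPM with vehicle. The arms were far apart, and the log2 change was -1.02 ± 0.19 (limma adjusted p = 4.8e-04) as deposited and -0.75 ± 0.10 (limma adjusted p = 0.0040) rescaled. MTF2 (chr1:93079235-93139081, plus strand), the other Polycomb-like member here, was 4.31, 6.29 and 4.87 TPM with doxycycline and 7.29, 8.71 and 7.05 TPM with vehicle. Its change of -0.50 ± 0.18 missed the threshold as deposited (limma adjusted p = 0.056) and passed it rescaled at -0.25 ± 0.06 (limma adjusted p = 0.022). PHF19 made up 57.2%, 55.6% and 59.8% of the summed PHF19 and MTF2 TPM with doxycycline, against 69.8%, 63.3% and 65.5% with vehicle, so the balance lay nearer to MTF2 in every doxycycline column.

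JARID2 and AEBP2, which mark the other form of PRC2, gave no call in RKO as deposited. JARID2 (chr6:15246296-15522040, plus strand), which recruits the complex and stimulates it, was 3.21, 4.27 and 4.03 TPM with doxycycline and 7.85, 3.57 and 3.24 TPM with vehicle. The highest value was in vehicle column 1, the column that stood apart in the fibroblast and endothelial markers, and the part of that column's other RNA in the value was not tested. With all 6 columns the log2 change was -0.21 ± 0.22 (limma adjusted p = 0.52). Without that column and rescaled it was 0.38 ± 0.06 (limma adjusted p = 2.4e-04), of the opposite sign. AEBP2 (chr12:19404045-19720801, plus strand), a zinc finger cofactor, was 2.23, 3.45 and 2.59 TPM with doxycycline and 4.69, 4.24 and 3.78 TPM with vehicle, with no overlap and a change of -0.49 ± 0.19 (limma adjusted p = 0.066). Without vehicle column 1 and rescaled, 8 subunits were called lower, against 29.8% of all genes, and EZH1 and JARID2 were called higher, against 29.1% of all genes.

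**Figure D1:**
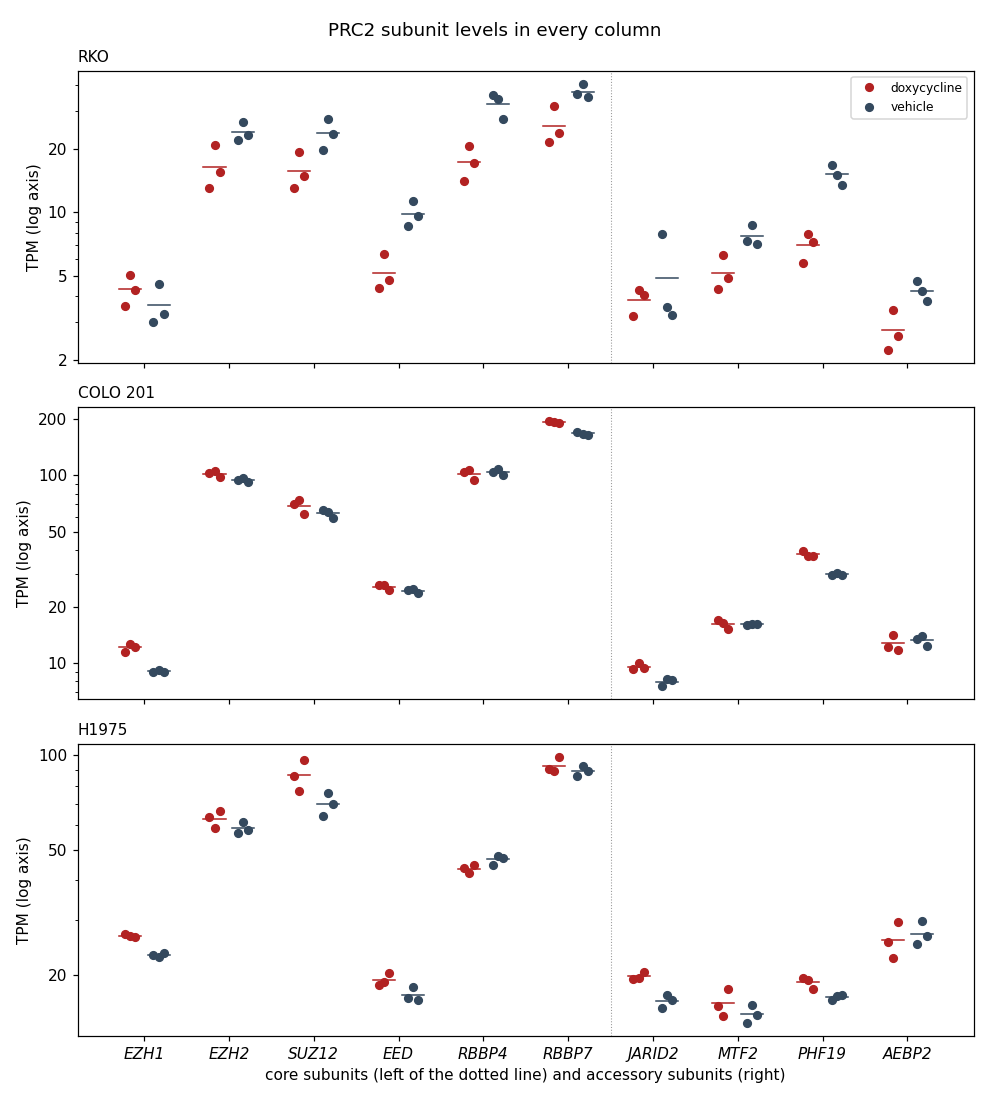
TPM of the 10 subunits in every column (log axis), 1 panel a line, with doxycycline columns left of vehicle columns for each gene and a bar at the mean of 3 columns. In RKO 8 of the 10 subunits lie lower in every doxycycline column, while EZH1 and JARID2 overlap; vehicle column 1 is the high JARID2 point at 7.85 TPM.

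In COLO 201 the changes were small. EZH1 stood at 1.34 of its vehicle mean with doxycycline, PHF19 at 1.27, JARID2 at 1.21, RBBP7 at 1.15 and EZH2 at 1.08. These 5 of the 10 subunits were called higher as deposited, against 45.9% of all 11566 tested genes called higher, a like share. By limma 0 were called lower, against 15.0% of all genes, and at an unadjusted p under 0.05 the numbers were also 5 higher and 0 lower. With columns rescaled, 2 were called higher (EZH1 and PHF19), against 27.3% of all genes, and 3 were called lower (RBBP4, MTF2 and AEBP2), against 29.7%. The same 5 subunits that were called higher had arms that did not overlap, as 48.5% of all genes did in that direction. For 0 subunits did doxycycline lie wholly below, as for 16.6% of all genes.

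EZH1 in COLO 201 was 11.5, 12.7 and 12.2 TPM with doxycycline and 8.92, 9.23 and 8.94 TPM with vehicle. Its log2 change of 0.39 ± 0.06 (limma adjusted p = 6.8e-05) stayed called after rescaling, at 0.27 ± 0.05 (limma adjusted p = 9.4e-04). EZH2 was 103, 105 and 98.2 TPM with doxycycline and 94.9, 96.5 and 92.1 TPM with vehicle. The margin between the arms was narrow, and the change of 0.11 ± 0.04 (limma adjusted p = 0.034) was lost when any 1 of 4 columns was left out (limma adjusted p = 0.081 to 0.14) and became -0.02 rescaled. The EZH1 share of the enzyme pair was 10.1%, 10.8% and 11.1% with doxycycline and 8.59%, 8.73% and 8.85% with vehicle, so it was higher in every doxycycline column, as in RKO.

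SUZ12 and EED of COLO 201 overlapped between the arms. SUZ12 was 70.0, 73.7 and 62.0 TPM with doxycycline and 65.5, 64.0 and 59.1 TPM with vehicle (log2 change 0.12 ± 0.06, limma adjusted p = 0.11). EED was 26.2, 26.1 and 24.4 TPM with doxycycline and 24.5, 24.9 and 23.5 TPM with vehicle (0.07 ± 0.05, limma adjusted p = 0.23). RBBP7 was 196, 192 and 191 TPM with doxycycline and 171, 167 and 165 TPM with vehicle, the highest level of any subunit. It was higher in every doxycycline column, and its log2 change of 0.20 ± 0.04 (limma adjusted p = 4.7e-04) was 0.07 rescaled and no longer called (limma adjusted p = 0.14). RBBP4 was 104, 107 and 94.7 TPM with doxycycline and 104, 108 and 101 TPM with vehicle, a change of -0.03 ± 0.05 as deposited (limma adjusted p = 0.60) and a called -0.16 rescaled (limma adjusted p = 0.0049). The RBBP7 share of the pair was 65.3%, 64.2% and 66.8% with doxycycline and 62.2%, 60.8% and 62.2% with vehicle, with no overlap.

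PHF19 of COLO 201 was 39.4, 37.1 and 37.2 TPM with doxycycline and 29.4, 30.3 and 29.6 TPM with vehicle. Its log2 change of 0.34 ± 0.04 (limma adjusted p = 3.2e-05) stayed called rescaled, at 0.21 ± 0.04 (limma adjusted p = 9.1e-04), and lay opposite to its change in RKO. MTF2 was 17.0, 16.4 and 15.2 TPM with doxycycline and 15.9, 16.2 and 16.2 TPM with vehicle, with overlapping arms and a change of 0.01 ± 0.05 (limma adjusted p = 0.94) that became a called -0.12 rescaled (limma adjusted p = 0.032). PHF19 made up 69.8%, 69.4% and 71.0% of the pair with doxycycline and 64.9%, 65.1% and 64.6% with vehicle. The balance therefore lay nearer to PHF19 in every doxycycline column of COLO 201. JARID2 was 9.27, 10.0 and 9.45 TPM with doxycycline and 7.54, 8.18 and 8.13 TPM with vehicle, a change of 0.24 ± 0.06 (limma adjusted p = 0.0033) that was 0.12 and not called rescaled (limma adjusted p = 0.053). AEBP2 was 12.2, 14.2 and 11.8 TPM with doxycycline and 13.5, 14.0 and 12.3 TPM with vehicle, with overlapping arms and a change of -0.06 ± 0.07 (limma adjusted p = 0.50) that was called lower rescaled, at -0.18 (limma adjusted p = 0.030).

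In H1975 the largest change was in SUZ12, at 1.24 of its vehicle mean, followed by JARID2 at 1.20 and EZH1 at 1.15. These 3 of the 10 subunits were called higher, against 23.9% of all 12359 tested genes. By limma 0 were called lower, against 14.6% of all genes, and at an unadjusted p under 0.05 the numbers were 3 higher and 0 lower. Rescaled, the same 3 were called higher, against 21.2% of all genes, and RBBP4 was called lower, against 18.5%. In 5 subunits (EZH1, SUZ12, EED, JARID2 and PHF19) every doxycycline column lay above every vehicle column, as in 30.7% of all genes. In 1, RBBP4, every doxycycline column lay below, as in 18.4% of all genes.

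EZH1 in H1975 was 27.02, 26.6 and 26.4 TPM with doxycycline and 23.1, 22.8 and 23.5 TPM with vehicle. The columns of each arm lay close together, and the log2 change was 0.20 ± 0.07 (limma adjusted p = 0.030), and the call was lost when any 1 of 5 columns was left out (limma adjusted p up to 0.14). EZH2 was 63.4, 58.8 and 66.4 TPM with doxycycline and 56.5, 61.1 and 57.8 TPM with vehicle, with overlapping arms and a change of 0.10 ± 0.07 (limma adjusted p = 0.27). EZH1 made up 29.9%, 31.1% and 28.5% of the pair with doxycycline and 29.0%, 27.2% and 28.9% with vehicle, and here the arms overlapped.

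SUZ12 of H1975 was 85.8, 77.2 and 96.9 TPM with doxycycline and 64.0, 75.6 and 69.9 TPM with vehicle. The arms just failed to overlap, and the change of 0.30 ± 0.09 (limma adjusted p = 0.014) was lost without vehicle column 1 (limma adjusted p = 0.095). EED was 18.6, 19.0 and 20.3 TPM with doxycycline and 16.9, 18.3 and 16.6 TPM with vehicle (0.15 ± 0.07, limma adjusted p = 0.11). RBBP4 was 43.7, 42.3 and 44.8 TPM with doxycycline and 44.9, 47.8 and 47.2 TPM with vehicle, a change of -0.10 ± 0.07 (limma adjusted p = 0.27) as deposited and a called -0.14 rescaled (limma adjusted p = 0.041). RBBP7 was 90.5, 88.8 and 98.7 TPM with doxycycline and 85.7, 92.3 and 89.1 TPM with vehicle, and its arms overlapped (0.06 ± 0.07, limma adjusted p = 0.54). The RBBP7 share of the pair, 67.4%, 67.8% and 68.8% with doxycycline and 65.7%, 65.9% and 65.3% with vehicle, was nonetheless higher in every doxycycline column, as it was in the other two lines.

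JARID2 of H1975 was 19.4, 19.6 and 20.4 TPM with doxycycline and 15.7, 17.3 and 16.6 TPM with vehicle. Its log2 change of 0.25 ± 0.07 (limma adjusted p = 0.015) was lost without doxycycline column 1 (limma adjusted p = 0.051) or vehicle column 1 (limma adjusted p = 0.064). PHF19 was 19.5, 19.3 and 18 TPM with doxycycline and 16.7, 17.1 and 17.3 TPM with vehicle, and the change of 0.15 ± 0.07 did not pass (limma adjusted p = 0.12). MTF2, at 15.9, 14.8 and 18 TPM with doxycycline and 14.1, 16.1 and 14.9 TPM with vehicle, overlapped between the arms, as did AEBP2, at 25.4, 22.6 and 29.5 TPM with doxycycline and 25.0, 29.6 and 26.5 TPM with vehicle. Their changes of 0.10 and -0.07 did not pass (limma adjusted p = 0.37 and 0.59). PHF19 made up 55.1%, 56.7% and 50% of the PHF19 and MTF2 sum with doxycycline and 54.2%, 51.5% and 53.7% with vehicle, without separating the arms.

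**Figure D2:**
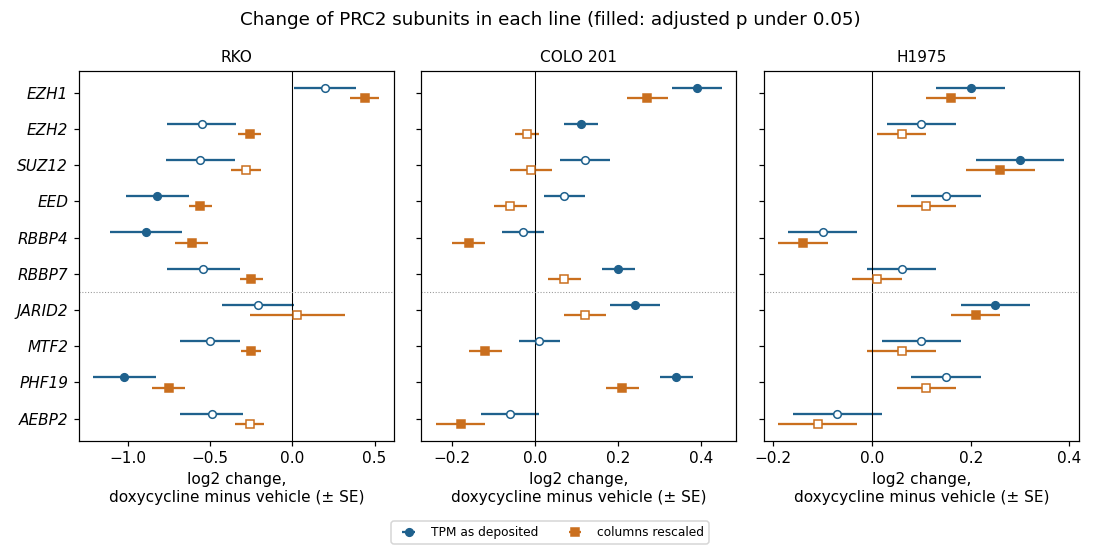
Log2 change of each subunit, doxycycline minus vehicle, with its SE, 1 panel a line on its own axis, for TPM as deposited (circles) and with columns rescaled (squares); filled symbols passed a limma adjusted p under 0.05. Rescaling moves all RKO points up and all COLO 201 and H1975 points down, and EZH1 lies at the high end in RKO and COLO 201.

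**Figure D3:**
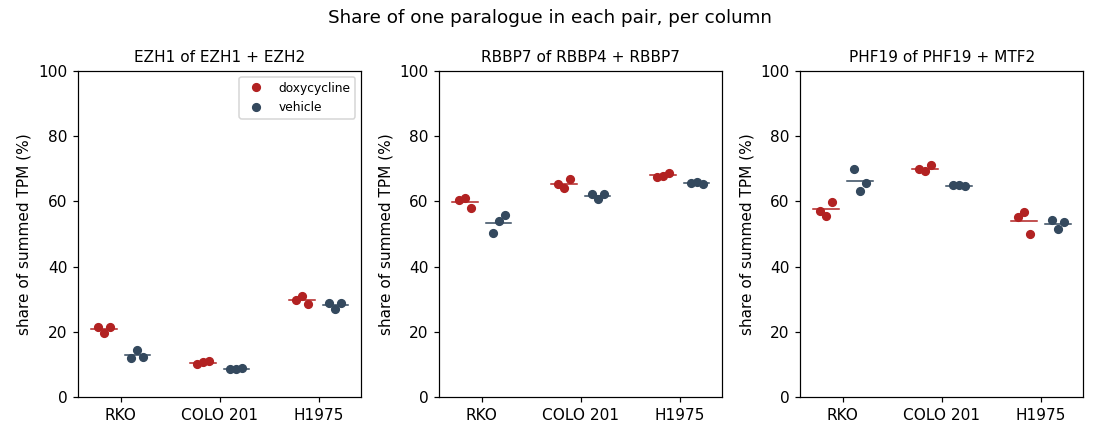
Share of summed TPM held by EZH1, RBBP7 and PHF19 within their pairs, per column, with doxycycline left of vehicle and a bar at the mean of 3 columns. The RBBP7 share lies higher in every doxycycline column of each line, and the PHF19 share lies lower in RKO and higher in COLO 201.

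The core and accessory subunits had like medians in each line. In RKO the median log2 change was -0.55 over the 6 core subunits and -0.50 over the 4 accessory subunits, beside -0.26 over all genes tested. In COLO 201 the medians were 0.11 for core and 0.12 for accessory subunits, beside 0.12 over all genes, and in H1975 they were 0.13 and 0.12, beside 0.06. The 6 core subunits summed to 69.4, 104 and 80.0 TPM with doxycycline in RKO and 126, 145 and 122 TPM with vehicle, and the 4 accessory subunits to 15.5, 21.9 and 18.7 TPM with doxycycline and 36.7, 31.6 and 27.5 TPM with vehicle. Both sums lay wholly lower with doxycycline, as 32.4% of single tested genes did. In COLO 201 both lay wholly higher, the core at 482 to 516 TPM with doxycycline and 449 to 469 TPM with vehicle and the accessory at 73.6 to 77.9 and 66.3 to 68.7 TPM. Of single tested genes 48.5% lay wholly higher there. In H1975 both overlapped, the core at 313 to 353 TPM with doxycycline and 291 to 318 TPM with vehicle. The accessory subunits held 18.3%, 17.4% and 19.0% of the TPM of all 10 with doxycycline in RKO and 22.6%, 17.9% and 18.4% with vehicle, which overlap. In COLO 201 that share was 13.2%, 13.1% and 13.3% with doxycycline and 12.4%, 12.8% and 12.9% with vehicle, higher in every doxycycline column by under 1 percentage point. In H1975 it was 19.6%, 19.6% and 19.5% with doxycycline and 19.7%, 20.1% and 19.9% with vehicle, lower in every doxycycline column by a smaller margin. The summed enzymes stood to SUZ12 as 1.28, 1.34 and 1.33 with doxycycline and 1.27, 1.13 and 1.14 with vehicle in RKO, higher in every doxycycline column. In COLO 201 the ratio was 1.63, 1.60 and 1.78 with doxycycline and 1.58, 1.65 and 1.71 with vehicle, which overlap. In H1975 it was 1.05, 1.11 and 0.957 with doxycycline and 1.24, 1.11 and 1.16 with vehicle, lower by a narrow margin.

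The order of levels was broadly shared between the lines, with RBBP7 highest in each. In the COLO 201 vehicle columns it was followed by RBBP4, EZH2, SUZ12, PHF19, EED, MTF2, AEBP2, EZH1 and JARID2, and no neighbours in that order overlapped. In RKO vehicle columns RBBP7 and RBBP4 overlapped, as did EZH2 with SUZ12, EED with MTF2, MTF2 with JARID2 through vehicle column 1, and JARID2, AEBP2 and EZH1 with one another. In H1975 SUZ12 came second and AEBP2 and EZH1 stood above EED, PHF19, JARID2 and MTF2, among which neighbours overlapped. With doxycycline, AEBP2 had the lowest mean in RKO, JARID2 in COLO 201 and MTF2 in H1975.

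The change differed between RKO and the other lines. In a joint fit of the 3 tables with contrasts of the within-line changes, the change was more positive in COLO 201 than in RKO at a limma adjusted p under 0.05 for 8 of the 10 subunits, against 45.6% of all 9382 genes tested. The differences of EZH1 (0.19) and JARID2 (0.45) were positive too and did not pass. Rescaled, 5 passed (EZH2, EED, RBBP4, RBBP7 and PHF19), against 18.3% of genes. For H1975 minus RKO, 7 subunits passed with a more positive change, against 38.6% of genes. JARID2 (0.45) and AEBP2 (0.42) were positive without passing, and EZH1 stood at -0.00. The same 7 passed rescaled, against 20.1% of genes, and EZH1 then had a more negative change of -0.28 ± 0.09 (limma adjusted p = 0.026), as did 14.2% of all genes. The 2 contrasts share the RKO columns. Between H1975 and COLO 201, 0 subunits differed by limma, at the adjusted threshold and at an unadjusted p under 0.05 alike, against 7.27% of all genes at the adjusted threshold. With vehicle column 1 of RKO left out and columns rescaled, an alternative chosen after seeing the data, SUZ12 (0.27 ± 0.09, limma adjusted p = 0.021) and EED (0.17 ± 0.07, limma adjusted p = 0.043) did differ.

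PHF19 differed the most. Its difference was 1.36 ± 0.15 for COLO 201 minus RKO (limma adjusted p = 1.3e-06) and 1.17 ± 0.15 for H1975 minus RKO (limma adjusted p = 1.1e-05), and 0.96 ± 0.10 and 0.85 ± 0.10 rescaled. The median difference of all genes was 0.38 and 0.34 for these contrasts as deposited, and -0.00 and 0.04 rescaled. EED followed with 0.89 ± 0.16 for COLO 201 minus RKO (limma adjusted p = 2.0e-04) and 0.97 ± 0.16 for H1975 minus RKO (limma adjusted p = 1.4e-04). SUZ12 differed by 0.68 ± 0.19 for COLO 201 minus RKO (limma adjusted p = 0.0070), which was lost rescaled at 0.27 ± 0.12 (limma adjusted p = 0.088). For H1975 minus COLO 201 the difference was -0.19 ± 0.15 for PHF19 (limma adjusted p = 0.50) and 0.18 ± 0.19 for SUZ12 (limma adjusted p = 0.64), which does not show that the lines act alike.

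**Figure D4:**
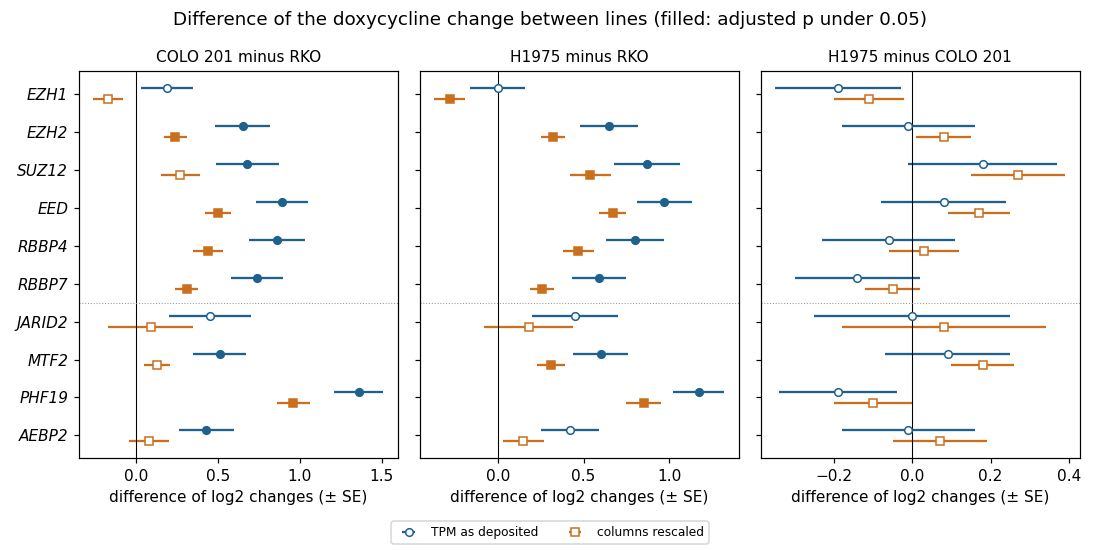
Difference of the within-line log2 changes for each subunit with its SE, 1 panel a pair of lines on its own axis, as deposited (circles) and rescaled (squares); filled symbols passed a limma adjusted p under 0.05. PHF19 lies farthest to the right in both contrasts with RKO, at 1.36 and 1.17, and no symbol is filled for H1975 minus COLO 201.

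Promoters are shown for the 2 paralogous enzymes and for EED, RBBP4 and PHF19, the 3 subunits called in RKO as deposited. The windows run from 250 bases before to 50 after the start, on the gene's strand, from RefSeq on GRCh38.p14, which held 15 windows for the 10 subunits. Capitals mark the E2F words TTCCCGC, also TTGGCGC, also TTCGCGC, searched on both strands. For EZH2 and PHF19 the window with such a word is shown, and the other window of each (chr7:148883436-148883735 and chr9:120868862-120869161) holds none. The other RBBP4 window overlaps the one shown and holds the same words. The PHF19 window lies inside the GENCODE span of the gene, whose upstream end is farther out.
EZH2, chr7:148884242-148884541, minus strand: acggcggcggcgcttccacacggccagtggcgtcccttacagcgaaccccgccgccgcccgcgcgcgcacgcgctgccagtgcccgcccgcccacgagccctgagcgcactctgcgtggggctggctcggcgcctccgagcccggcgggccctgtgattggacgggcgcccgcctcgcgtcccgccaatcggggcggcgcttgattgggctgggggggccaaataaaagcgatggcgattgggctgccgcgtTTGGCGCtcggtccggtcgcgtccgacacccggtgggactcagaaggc
EZH1, chr17:42744991-42745290, minus strand: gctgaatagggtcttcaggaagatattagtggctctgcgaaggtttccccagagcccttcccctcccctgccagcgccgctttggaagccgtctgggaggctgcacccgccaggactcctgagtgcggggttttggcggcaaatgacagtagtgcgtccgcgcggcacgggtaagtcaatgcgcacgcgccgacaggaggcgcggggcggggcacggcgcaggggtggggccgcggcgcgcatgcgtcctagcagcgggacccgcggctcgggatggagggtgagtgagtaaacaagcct
EED, chr11:86244503-86244802, plus strand: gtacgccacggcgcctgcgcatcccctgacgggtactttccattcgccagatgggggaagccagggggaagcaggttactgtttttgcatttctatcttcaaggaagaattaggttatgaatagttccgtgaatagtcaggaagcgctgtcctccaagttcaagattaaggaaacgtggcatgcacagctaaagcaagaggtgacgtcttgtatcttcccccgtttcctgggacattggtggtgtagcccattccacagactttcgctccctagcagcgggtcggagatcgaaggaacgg
RBBP4, chr1:32650958-32651257, plus strand: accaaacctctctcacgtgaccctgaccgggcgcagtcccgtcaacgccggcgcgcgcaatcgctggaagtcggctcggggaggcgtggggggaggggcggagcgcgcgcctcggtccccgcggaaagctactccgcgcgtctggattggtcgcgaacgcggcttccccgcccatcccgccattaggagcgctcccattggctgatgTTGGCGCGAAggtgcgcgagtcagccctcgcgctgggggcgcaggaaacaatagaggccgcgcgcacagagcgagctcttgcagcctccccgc
PHF19, chr9:120877139-120877438, minus strand: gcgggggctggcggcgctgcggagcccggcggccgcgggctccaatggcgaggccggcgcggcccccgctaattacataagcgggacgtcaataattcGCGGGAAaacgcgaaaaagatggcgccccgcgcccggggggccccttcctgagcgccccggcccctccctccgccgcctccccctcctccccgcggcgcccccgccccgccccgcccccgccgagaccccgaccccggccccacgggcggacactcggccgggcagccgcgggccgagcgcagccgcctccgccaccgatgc

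An E2F word was in 7 of the 15 windows, belonging to 6 of the 10 subunits (EZH2, SUZ12, RBBP4, RBBP7, MTF2 and PHF19), beside 11.0% of all 35116 promoter windows of 300 bases. In RBBP4 a TTGGCGC and a TTCGCGC match overlap on opposite strands. The word was not in the windows of EZH1, EED, JARID2 or AEBP2. CCAAT, on either strand, was in 10 windows of 7 subunits, beside 34.6% of all windows, and TTTGAA was in 1, that of SUZ12, beside 15.2%. In the EZH2 window printed above, CCAAT occurs 4 times. These letters are a description of the windows. EZH1, EED, JARID2 and AEBP2, without an exact match, had RKO changes of 0.20, -0.82, -0.21 and -0.49. The 6 with a match had changes between -1.02 and -0.50. Only exact matches were searched, and some subunits had more than 1 window. The overlapping RBBP4 windows both count among the 7, and all promoter windows were not matched to these in base composition. A part of E2F factors in these changes was not tested.

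Some members share sequence with other genes, which bears on how reads could be split. Of the 50-base windows along the RBBP4 coding sequence (GENCODE 29), 35.7% occur in transcripts of 5 other genes, mostly RBBP4P1, and of those of SUZ12 19.0% occur in SUZ12P1. This leaves the values of both uncertain by an amount that was not measured. SUZ12P1 is listed in the RKO table at 1.49, 2.03 and 1.82 TPM with doxycycline and 2.58, 2.69 and 2.40 TPM with vehicle, all far under SUZ12. The share was 1.63% for EZH2 and 0.297% for EED, and no shared window was found for the other 6. The paralogues themselves are well apart. EZH1 and EZH2 were identical at 68.7% of aligned coding bases with a longest identical run of 20 bases, RBBP4 and RBBP7 at 76.2% with a run of 26, and MTF2 and PHF19 at 58.2% with a run of 12.

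By log2(TPM + 1) centred on each line's mean, the 5 genes most like EZH2 among 9381 others over the 18 columns were SCAF4 (Pearson r 0.984), KRT10 (0.979), PAICS (0.978), PSPH (0.976) and HPRT1 (0.975). Of the subunits, RBBP7 (0.972), MTF2 (0.962), EED (0.954) and SUZ12 (0.939) lay close behind, RBBP4 (0.861), PHF19 (0.845) and AEBP2 (0.827) further off, and JARID2 (0.285) and EZH1 (0.189) far off. Within single lines the order was another. In RKO, COLO 201 and H1975, r was 0.212, 0.846 and 0.784 for JARID2 and 0.0675, 0.864 and 0.599 for EZH1. For RBBP4 it was 0.909, 0.288 and -0.0957, and for AEBP2 0.920, 0.201 and 0.558. MTF2 stood at 0.371 in COLO 201 and PSPH at 0.385 in H1975. The columns of a table share their scaling, so these coefficients describe the columns and carry no test.

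The further lists below are read beside the shares of all tested genes called by the same test. As deposited these were 2.09% higher and 16.1% lower in RKO, 45.9% and 15.0% in COLO 201 and 23.9% and 14.6% in H1975, and rescaled 13.8% and 14.0%, 27.3% and 29.7%, and 21.2% and 18.5%. Counts at an unadjusted p have no such share beside them.

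Other genes linked to PRC2, outside the 10, were PHF1, EPOP, LCOR, LCORL and EZHIP, of which EZHIP was listed at 0 in every column. Levels are per gene, so transcript forms of a gene such as LCOR were not told apart. In COLO 201, PHF1, the third Polycomb-like protein, rose by 0.51 ± 0.06 on the log2 scale (limma adjusted p = 2.0e-05), EPOP, listed as C17orf96, by 0.44 ± 0.06 (limma adjusted p = 3.3e-05) and LCOR by 0.28 ± 0.08 (limma adjusted p = 0.0062), while LCORL fell by 0.42 on that scale (limma adjusted p = 5.6e-04). These are 3 higher and 1 lower of 4 tested, against 45.9% and 15.0% of all genes, and the LCOR call was lost rescaled (limma adjusted p = 0.070). In H1975 LCOR rose by 0.44 ± 0.09 (limma adjusted p = 0.0018), 1 higher of 4 tested, near the 23.9% of all genes. In RKO 0 of 3 tested were called by limma, and 0 had an unadjusted p under 0.05.

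PRC1, the complex that reads the PRC2 mark and ubiquitinates histone H2A, was counted over 21 subunits. In RKO 2 of 20 tested fell, a smaller share than the 16.1% of all genes, and 0 rose by limma (4 and 0 at an unadjusted p under 0.05). They were CBX2, a mark-binding chromodomain protein, with a change of -0.79 ± 0.18 (limma adjusted p = 0.0029) and PHC3 with -0.59 ± 0.18 (limma adjusted p = 0.024). Rescaled, 3 others (RING1, PCGF1 and L3MBTL2) were called higher there, near the 13.8% of all genes. In COLO 201 10 of 21 rose and 3 fell (8 and 4 rescaled), both near the 45.9% and 15.0% of all genes, and the median of 0.12 equalled that of all genes. CBX6 rose by 0.73 ± 0.04 (limma adjusted p = 2.3e-08) and PCGF2 by 0.51 ± 0.05 (limma adjusted p = 2.8e-06). In H1975 1 rose, PHC2 at 0.29 ± 0.07 (limma adjusted p = 0.0049), and 3 fell, among them CBX2 at -0.25 ± 0.09 (limma adjusted p = 0.048), against 23.9% and 14.6% of all genes.

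Demethylases of lysine 27, genes of the PR-DUB complex and methyltransferases of lysine 36 were counted as well. KDM6B, a demethylase of lysine 27, rose in COLO 201 by 0.39 ± 0.05 (limma adjusted p = 3.1e-05), and in RKO its change of 0.56 ± 0.21 did not pass as deposited (limma adjusted p = 0.056) and was 0.85 rescaled (limma adjusted p = 0.0018). Of the 7 tested demethylase and PR-DUB genes, 0 were called in RKO by limma (1 higher and 3 lower at an unadjusted p under 0.05), 2 rose and 1 fell in COLO 201 (1 and 4 rescaled), against 45.9% and 15.0% of all genes. In H1975 1 rose, ASXL2 at 0.34 ± 0.07 (limma adjusted p = 0.0023), against 23.9% of all genes. Of 5 methyltransferases of lysine 36, whose mark hinders PRC2, NSD2 (-0.63 ± 0.19, limma adjusted p = 0.018) and NSD3 (-0.60 ± 0.19, limma adjusted p = 0.032) fell in RKO, against 16.1% of all genes. In COLO 201 2 of the 5 rose (0 rose and 3 fell rescaled) and in H1975 1 rose, near the 45.9% and 23.9% of all genes in those lines. NSD2, listed as WHSC1, rose by 0.14 ± 0.05 in COLO 201 (limma adjusted p = 0.018; 0.01 and not called rescaled) and by 0.19 ± 0.07 in H1975 (limma adjusted p = 0.039).

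Of 17 partners of RBBP4 and RBBP7 in the NuRD, SIN3 and CAF-1 complexes, 4 fell in RKO (5 rescaled), against 16.1% of all genes (14.0% rescaled). They were both large CAF-1 subunits, which deposit histones behind replication forks, CHAF1B (-1.13 ± 0.19, limma adjusted p = 1.4e-04) and CHAF1A (-1.07 ± 0.20, limma adjusted p = 4.3e-04), and the NuRD subunits MBD3 (-0.97 ± 0.20, limma adjusted p = 0.0013) and CHD3 (-0.78 ± 0.20, limma adjusted p = 0.0077). In COLO 201 8 of 17 rose and 3 fell (1 and 7 rescaled), near the 45.9% and 15.0% of all genes as deposited. In H1975 1 rose and 4 fell (1 and 6 rescaled), against 23.9% and 14.6% of all genes. SAP30, a SIN3 subunit, rose in both, by 0.63 ± 0.05 (limma adjusted p = 4.1e-07) in COLO 201 and by 0.39 ± 0.08 (limma adjusted p = 0.0021) in H1975.

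The E2F-driven replication and division genes were lower in RKO beside the subunits. Of 22 tested, 21 fell, against 16.1% of all genes, with a median log2 change of -1.31, beside -0.26 over all genes. MCM5, part of the replicative helicase, changed by -1.75 ± 0.20 (limma adjusted p = 1.3e-06), GINS2 by -1.76 ± 0.22 (limma adjusted p = 3.5e-06), E2F1 itself by -1.55 ± 0.18 (limma adjusted p = 1.7e-06) and MCM3 by -1.56 ± 0.21 (limma adjusted p = 6.8e-06). Rescaled, 20 fell and CCNE1 rose. The subunits changed less, with an RKO median of -0.54 over all 10. In COLO 201 14 of 21 rose and 2 fell, against 45.9% and 15.0% of all genes, with a median of 0.16 beside 0.12. Rescaled, 4 rose and 4 fell there, against 27.3% and 29.7%. In H1975 5 rose, near the 23.9% of all genes, and 1 fell, with a median of 0.08; UHRF1 was not analysed here in those lines. The part of cell proliferation in the subunits' changes was not tested.

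Genes reported as silenced by PRC2 in human cancer cells did not move as a block. In COLO 201, of 12 tested, 6 rose and 4 fell, against 45.9% and 15.0% of all genes. DAB2IP, a Ras GTPase-activating protein, rose by 0.74 ± 0.04 (limma adjusted p = 3.3e-08) and the transcription factor FOXC1 by 0.73 ± 0.06 (limma adjusted p = 4.2e-07), while E-cadherin, CDH1, changed by -0.58 ± 0.04 (limma adjusted p = 1.4e-07) and the metalloproteinase inhibitor TIMP2 by -0.52 ± 0.05 (limma adjusted p = 1.4e-06). In H1975, of 11 tested, 1 rose and 3 fell, against 23.9% and 14.6% of all genes. FOXC1 rose by 0.32 ± 0.08 (limma adjusted p = 0.0054), and those that fell were TIMP2 at -0.56 ± 0.07 (limma adjusted p = 3.9e-05), VASH1 at -0.58 ± 0.09 (limma adjusted p = 3.4e-04) and DAB2IP at -0.25 ± 0.08 (limma adjusted p = 0.024). In RKO 2 of 9 tested fell as deposited, against 16.1% of all genes, CDKN2B at -1.12 ± 0.24 (limma adjusted p = 0.0015) and TIMP2 at -1.86 ± 0.56 (limma adjusted p = 0.020), and 0 rose by limma (0 also at an unadjusted p under 0.05). Neither was called rescaled (limma adjusted p = 0.093 for CDKN2B and 0.27 for TIMP2). TIMP2 was 0.128, 0.206 and 0.193 TPM with doxycycline and 27.9, 0.676 and 0.619 TPM with vehicle, so its high value was that of vehicle column 1. The summed TPM of the 20 genes was 124 in vehicle column 1 of RKO, against 11.5 to 16.2 with doxycycline and 22.0 and 19.1 in the other vehicle columns. Some of the 9 reached the minimum TPM only through vehicle column 1, such as SLIT2, at 9.55 TPM there and 0 in every other column. Rescaled, 5 genes were tested without that column, with a median of -0.04, against 9 and -0.90 with it. The calls without it were CDKN2B and KLF2, both lower.

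**Figure D5:**
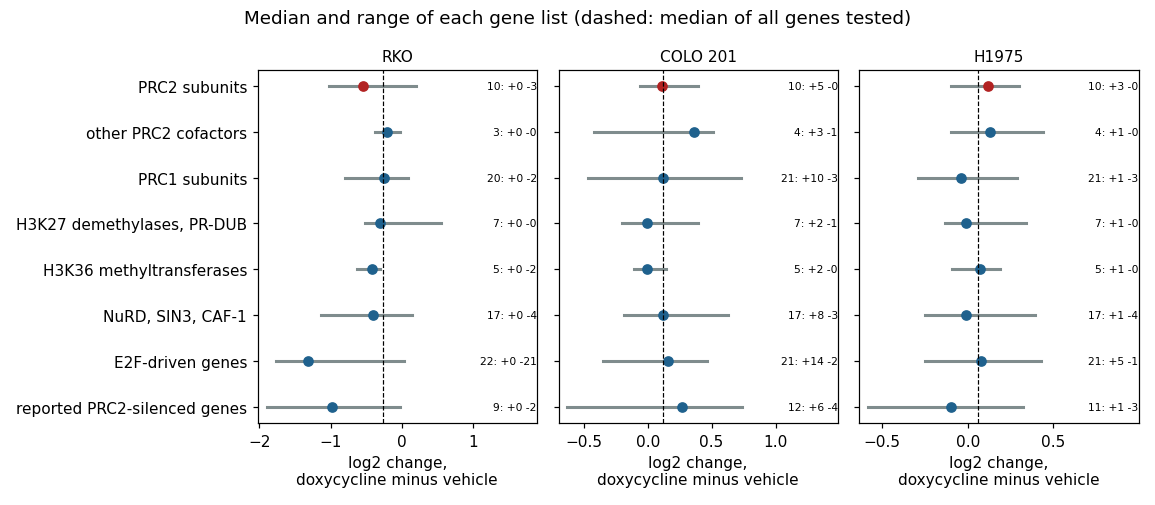
Median (point) and range (bar) of the log2 change, doxycycline minus vehicle, of each gene list as deposited, 1 panel a line on its own axis, with the median of all tested genes dashed; the text at the right gives the number tested, called higher (+) and called lower (-). In RKO the E2F-driven genes have a median of -1.31 and the PRC2 subunits of -0.54, beside -0.26 for all genes. The RKO bar of the reported PRC2-silenced genes includes genes that reached the minimum TPM only through vehicle column 1.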

How the data were processed

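Cells of 3 lines were sequenced as stranded messenger RNA, per the labels' protocols. Alignment with STAR to GRCh38 and use of DESeq2 are named, without versions, per the submitters' processing notes. The authors deposited 1 table of TPM per line with 6 columns, each scaled to the same sum. TPM are not counts, so no count model was fitted. In COLO 201, 28 entries named as dates were left out. Genes with a mean of at least 1 TPM were tested with limma 3.58.1 (R 4.3.3) with a trend on log2(TPM + 1), two-sided, per line, with Benjamini-Hochberg adjustment over all genes tested and a threshold of 0.05. The script was tested on simulated data. Differences between lines came from a joint limma fit. Promoters are RefSeq windows (GRCh38.p14), positions and coding sequences are from GENCODE 29, and paralogues were aligned with Biopython 1.88. The members and lists were chosen with earlier results of these data known. All subunits, MUC1, up to 4 members of each list with the smallest adjusted p per line and the 5 genes most like EZH2 could be named. KLF2, RING1, PCGF1, L3MBTL2 and SUZ12P1 were named after their values were seen.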

Additional observations from a re-analysis of the deposited data

Results flagged for a closer look

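For 15 subunit values the difference of the doxycycline change between 2 lines passed the test of the difference itself (joint limma fit, adjusted p under 0.05). For COLO 201 minus RKO the log2 differences were 0.65 for EZH2, 0.68 for SUZ12, 0.89 for EED, 0.86 for RBBP4, 0.74 for RBBP7, 0.51 for MTF2, 1.36 for PHF19 and 0.43 for AEBP2. For H1975 minus RKO they were 0.65 for EZH2, 0.87 for SUZ12, 0.97 for EED, 0.80 for RBBP4, 0.59 for RBBP7, 0.60 for MTF2 and 1.17 for PHF19. Both contrasts share the RKO columns, and the median difference of all genes was 0.38 and 0.34.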

How the results depend on the processing

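The subunits of RKO depended most on the processing. As deposited 3 were called there, all lower. The number, in either direction, was 7 with columns rescaled, 7 with small noncoding RNA genes removed and 5 at a pseudocount of 0.1. It was 10 rescaled without vehicle column 1 and 0 with no minimum TPM. At a minimum of 5 TPM, which left EZH1, JARID2 and AEBP2 untested, it was 5. Over all genes the RKO count of 1915 became 2921 rescaled, 6055 rescaled without vehicle column 1, 28 with no minimum and 2855 with small noncoding RNA genes removed. Leaving out 1 column at a time gave 595 to 2410 genes and 2 to 8 subunits in RKO, the lowest of each without doxycycline column 1 and the highest without doxycycline column 2, with 994 genes without doxycycline column 3. It gave 6077 to 7202 genes and 4 to 6 subunits in COLO 201, and 3075 to 5206 genes and 0 to 3 subunits in H1975, the lowest of each without vehicle column 1. The number of differences between lines, in either direction, stayed between 13 and 18, main value 15 of 30. This includes the fits without vehicle column 1 of RKO, an alternative chosen after seeing the data. At a minimum of 5 TPM only 7 subunits were tested in each contrast. A subunit's change turned sign in 14 values, of which 3 were called as deposited or under the alternative: JARID2 of RKO, 0.38 rescaled without vehicle column 1, and EZH2 and MTF2 of COLO 201, -0.02 and -0.12 rescaled. The other 11 were called in neither. Among them JARID2 of RKO was 0.03 rescaled and 0.02 with small noncoding RNA genes removed, and SUZ12 and EED of COLO 201 were -0.01 and -0.06 rescaled. MTF2 of COLO 201 was -0.06 with mitochondrially encoded genes removed. Leaving out 1 column at a time gave JARID2 of RKO -0.40 to 0.13, RBBP4 of COLO 201 -0.07 to 0.02, MTF2 of COLO 201 -0.03 to 0.05 and AEBP2 of H1975 -0.16 to 0.02. The cause was not tested. To look for pairing, each column was taken as its deviation, gene by gene, from the mean of its arm. Over the tested genes, deviations of same-numbered RKO columns correlated at -0.0124 to 0.2925. For COLO 201 the coefficients ran from -0.0542 up to 0.2817, and for H1975 from -0.4155 up to 0.1555. So few values cannot tell whether the numbers pair the columns. With the column number as a replicate block, 7, 6 and 2 subunits and 2415, 7759 and 3738 genes were called in RKO, COLO 201 and H1975. Removing mitochondrially encoded genes gave 2227 higher and 2407 lower in H1975 and 4096 higher and 2360 lower in COLO 201, and removing small noncoding RNA genes gave 1238 higher and 1617 lower in RKO. Over all alternatives 121 subunit values of RKO, 129 of COLO 201 and 136 of H1975 kept both sign and side of the threshold; with the sign kept, 4, 8 and 11 lost a call and 28, 4 and 2 gained one. Depth is unknown, so no counting limit was set.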
